A study of Mus musculus with 20 samples.

Results

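Adenosine and sleep-linked signalling in the mouse hypothalamus was followed through 9 genes out of the 53801 counted. They are the adenosine receptors Adora1 and Adora2b, the adenosine enzymes Adk, Ada and Nt5e, the nucleoside transporter Slc29a1, the neuropeptide S receptor Npsr1, the prostaglandin D synthase Ptgds and the neuropeptide galanin (Gal). The set was chosen by measured values: Adora1 and Npsr1 were selected on their night against day difference in KO, and the other genes were listed with them for their place in the same signalling. The 9 genes all have a row in the count tables and all passed the low-count filter, which left 22181 genes to test.

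Total hypothalamic RNA depleted of ribosomal RNA was sequenced in 20 libraries, 5 in each of 4 groups. KO_night and KO_day are mice that lack both Magel2 and Ndn (necdin), a deletion made to model Prader-Willi syndrome, and WT_night and WT_day are C57BL/6J mice. Day is 6 h and night is 18 h after the lights came on, in a standard light and dark cycle with free food and water. Age, sex, the construct of the deletion and the strain background of the KO mice are not given in the sources used here. Nothing says that the libraries of a group come from separate animals. Each p below therefore sets a group difference against the spread between these libraries, which may not be the spread between animals.

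Adenosine builds up outside brain cells during waking and slows neurons mainly through the A1 receptor, and caffeine keeps animals awake by blocking adenosine receptors. It is made outside the cell from AMP, moves across the membrane through equilibrative transporters, and is removed inside the cell by phosphorylation or deamination. Prostaglandin D2 promotes sleep in rodents and acts in part through adenosine, galanin marks sleep-promoting neurons of the preoptic hypothalamus, and neuropeptide S promotes waking.

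The labels were checked before the genes were compared. Ndn stood at 0.248 to 1.01 CPM (the count as a share of the scaled library total, in parts per 1000000) in the 10 KO libraries, against 239 to 346 CPM in 9 of the WT libraries, and the library labelled WT_day 3 had 30.9 CPM. Magel2 stood at 0 to 0.182 CPM in KO, against 15.6 to 19.5 CPM in those 9 WT libraries and 2.15 CPM in the library labelled WT_day 3, so this library goes against its label. Time was taken from the titles, except for KO_day 5, whose time comes from the time field. KO_day 5 is counted below among the libraries whose time labels agree, although no time from its title was set beside that field. WT_day 4 and WT_day 5 carry the same replicate number, 4, in their titles and differ in a second number; their counts differed by more than counting error, with a chi-square of 6.92 per degree of freedom. In 6 libraries (KO_night 1, 2 and 3, KO_day 1 and 2, and WT_night 1) the time field of the labels contradicts the title. Dbp, a clock output gene whose RNA follows the time of day in many tissues, stood at 21.5 to 36.5 CPM in KO_night, against 36.1 to 44.1 CPM in KO_day, and at 21.7 to 25.7 CPM in WT_night, against 28.8 to 38.6 CPM in WT_day. The 36.5 CPM was that of KO_night 3, whose labels conflict, and it lay within the KO_day range. KO_night 2, the next highest of its group, had 26.7 CPM. By title the night minus day log2 difference of Dbp was -0.51 in KO and -0.46 in WT (adjusted p = 0.0489 and 0.0498 in edgeR's quasi-likelihood F-test), and by the time field -0.22 and -0.44 (adjusted p = 0.758 and 0.348). With only libraries whose time labels agree it was -0.77 and -0.49. Other clock genes did not all follow Dbp. In KO by title Arntl was at -0.02, Nr1d1 at 0.02, Per2 at -0.08 and Ciart at -0.39. By the time field the same genes were at 0.14, -0.05, 0.13 and 0.0034 in KO. In WT Arntl was at 0.32 by title and 0.33 by the time field. Which label is right was not tested. Library totals ran from 32066289 to 48697647 counts. Of the markers of the labelled tissue, the lateral hypothalamic peptides Pmch and Hcrt stood at 210 to 343 and 50.04 to 121 CPM over the 20 libraries, and none of the 11 hypothalamic markers was at 0 in any library. These 11 markers summed to 1019.9 to 1236 CPM in KO_night, 974 to 1178.5 CPM in KO_day, 747 to 987 CPM in WT_night and 925 to 1089.5 CPM in WT_day, so that KO_night and WT_night did not overlap. Oxt (oxytocin) and Avp (vasopressin) rose in KO_night against WT_night, by log2 differences of 0.76 and 0.45 (edgeR adjusted p = 0.000234 and 0.0182). Their mean levels were 297 and 259 CPM in KO_night, against 176 and 190 CPM in WT_night. These 2 alone of the 11 markers passed at night. Of the 11, 9 had log2 differences above 0, with Agrp at 0.0044, while Sim1 and Nr5a1 were at -0.13 and -0.08. The part of the difference in this marker sum in the night values below was not tested.

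The transcription start regions of the 2 genes that led to the choice are shown first, to set the short sequences that clock and activity factors bind beside genes read at 2 times of day. The sequences are RefSeq promoter windows of build GRCm38.p6, from 250 bases before to 50 bases after the start, written 5′ to 3′ on the strand of the gene. Capitals mark the motifs found: CACGTG (E-box), TTATGTAA (D-box), TGACGTCA (cyclic AMP response element) and GGGCGG (GC box), each searched on both strands.
Adora1, chr1:134235408-134235707, minus strand: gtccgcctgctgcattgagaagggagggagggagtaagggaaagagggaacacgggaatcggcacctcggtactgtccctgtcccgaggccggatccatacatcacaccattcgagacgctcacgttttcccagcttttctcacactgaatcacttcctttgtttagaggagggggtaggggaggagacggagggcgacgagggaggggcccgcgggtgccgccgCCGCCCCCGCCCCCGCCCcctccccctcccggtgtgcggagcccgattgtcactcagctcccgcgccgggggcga
Npsr1, chr9:24097768-24098067, plus strand: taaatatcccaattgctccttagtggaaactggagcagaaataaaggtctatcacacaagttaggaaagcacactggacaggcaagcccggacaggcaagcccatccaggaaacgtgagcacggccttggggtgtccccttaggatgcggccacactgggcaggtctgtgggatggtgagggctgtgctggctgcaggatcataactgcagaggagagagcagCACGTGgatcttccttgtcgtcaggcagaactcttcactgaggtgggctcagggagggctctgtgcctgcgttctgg

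The Adora1 window holds 3 GC boxes, all on the other strand, that begin 25, 19 and 13 bases before the start and follow each other without overlap. The Npsr1 window holds 1 E-box, which begins 27 bases before the start. All 9 genes have an entry, with 18 windows in all, because Slc29a1 has 8 alternative starts and Adora1 and Adk have 2 each. The E-box is in 2 of these 18 windows (Npsr1 and 1 start of Slc29a1), the D-box in 1 (Ptgds, beginning 141 bases before the start), the GC box in 12, and the cyclic AMP response element in none. Of all 32851 windows, 7.15% hold the E-box, 0.938% the D-box, 35.7% the GC box and 1.79% the cyclic AMP response element. A match is a run of letters and not a measured binding site.

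Adora1 (ENSMUSG00000042429, GRCm38 chromosome 1, 134199223 to 134235431, minus strand) encodes the A1 receptor, which couples to inhibitory G proteins. Its level was 44.1, 48.0, 45.6, 48.2 and 44.7 CPM in KO_night 1 to 5, against 40.5, 34.0, 36.7, 37.98 and 37.9 CPM in KO_day 1 to 5. In WT it was 39.2, 40.1, 34.3, 40.1 and 38.5 CPM in WT_night 1 to 5, against 40.5, 35.5, 37.9, 41.1 and 37.7 CPM in WT_day 1 to 5. All 5 KO_night libraries lay above the 15 others, and the 3 other groups overlapped. Group means were 46.1 ± 1.91 CPM in KO_night, 37.4 ± 2.38 CPM in KO_day, 38.4 ± 2.45 CPM in WT_night and 38.5 ± 2.27 CPM in WT_day (SD, n = 5 each). KO_night thus stood 1.23-fold above KO_day, a log2 difference of 0.30 ± 0.05 (SE), and 1.199-fold above WT_night. These values chose the gene or share its KO libraries, and they are given with no test.

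Npsr1 (ENSMUSG00000043659, GRCm38 chromosome 9, 24097996 to 24316398, plus strand) encodes the receptor for neuropeptide S. Its level was 8.67, 7.29, 7.84, 9.86 and 7.85 CPM in KO_night 1 to 5, against 10.7, 12.1, 12.8, 9.95 and 10.9 CPM in KO_day 1 to 5. In WT it was 11.2, 10.3, 13.2, 10.2 and 11.9 CPM in WT_night 1 to 5, against 11.8, 11.3, 11.1, 10.4 and 10.2 CPM in WT_day 1 to 5. The order was the reverse of that of Adora1, with all 5 KO_night libraries below the 15 others, although KO_night 4 and KO_day 4 were close, at 9.86 and 9.95 CPM. Group means were 8.30 ± 1.0004 CPM in KO_night, 11.3 ± 1.14 CPM in KO_day, 11.3 ± 1.26 CPM in WT_night and 10.96 ± 0.648 CPM in WT_day (SD, n = 5 each). The KO_night level was 0.736 times that of KO_day, a log2 difference of -0.44 ± 0.09 (SE), and 0.732 times that of WT_night. These differences too are a description, since they chose the gene.

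**Figure D1:**
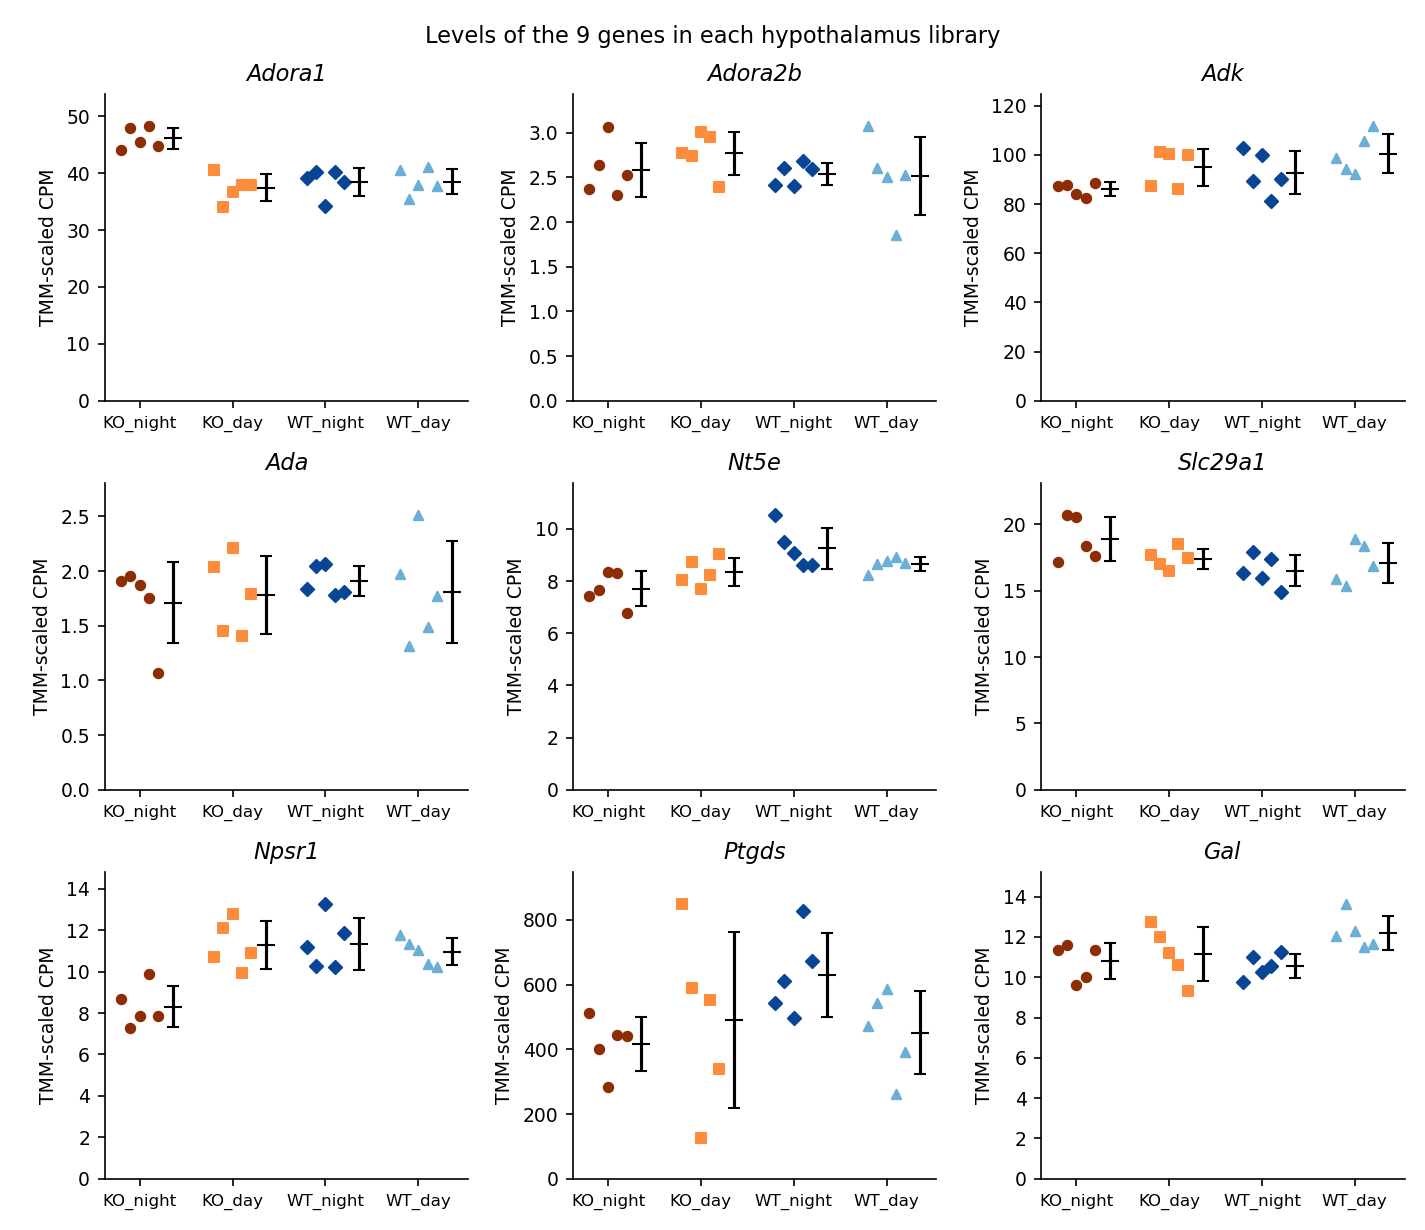
Levels of the 9 genes in TMM-scaled CPM (y axes, each from 0) in the 5 libraries of KO_night, KO_day, WT_night and WT_day (points), with the group mean and SD beside them. The KO_night libraries of Adora1 lie at 44.1 CPM and above, over all others, those of Npsr1 at 9.86 CPM and below, under all others, and Ptgds spreads from 127 to 847 CPM within KO_day.

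Among all 22181 genes tested, 107 (0.482%) had KO_night libraries that overlapped none of the 15 others. In the night against day comparison of KO, 16 genes (0.0721%) had an adjusted p under 0.05 in edgeR's quasi-likelihood F-test and 556 (2.51%) had groups that did not overlap. Adora1 and Npsr1 were among both, and nothing is read from this because the comparison chose them. Npsr1 was the last gene inside the threshold, and Gm5844, with a log2 difference of 0.54, was the first outside it. The 16 calls rest on single libraries: none was left when KO_day 2, KO_day 3, KO_day 5 or KO_night 2 was left out, and 328 were made without KO_day 1.

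The time labels bear directly on both genes. The KO_night libraries whose labels conflict (1, 2 and 3) had 44.1, 48.0 and 45.6 CPM of Adora1, and those whose labels agree (4 and 5) had 48.2 and 44.7 CPM. With only libraries whose time labels agree, the night minus day log2 difference in KO was 0.31 for Adora1 and -0.34 for Npsr1. With time taken from the time field it was 0.0018 for Adora1 and 0.08 for Npsr1.

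**Figure D2:**
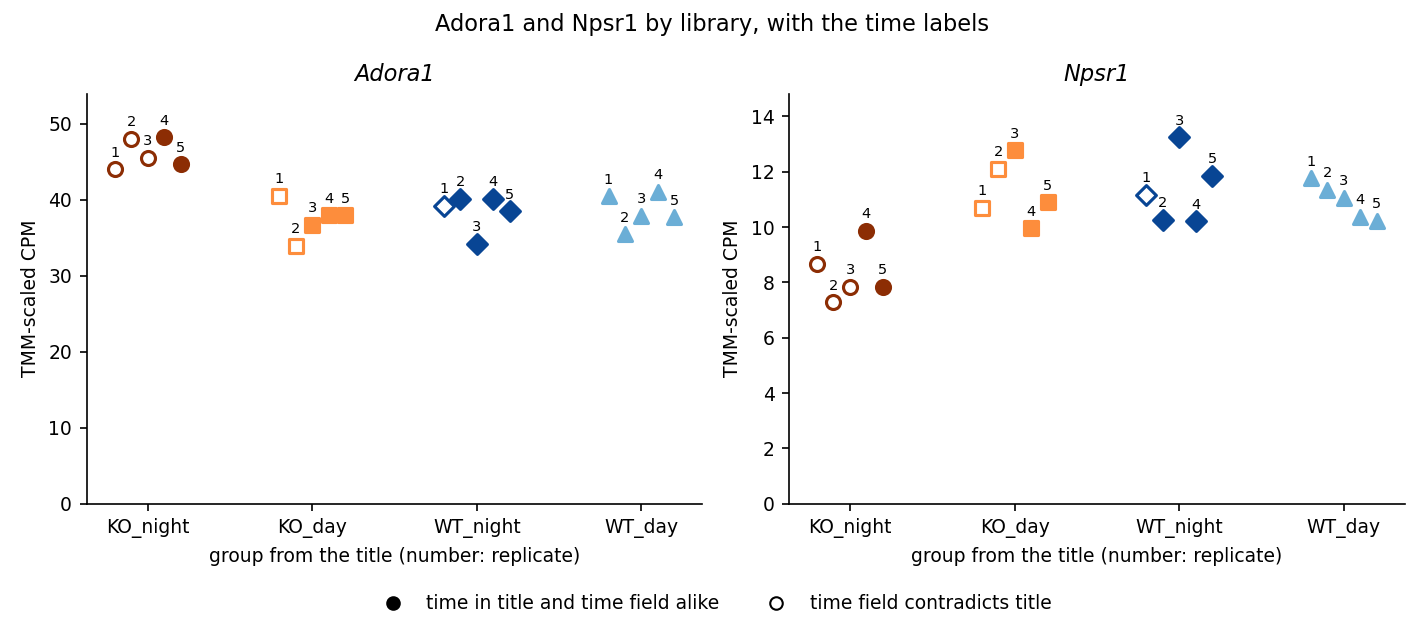
Adora1 and Npsr1 in TMM-scaled CPM (y axes, from 0) in each library by its title group, numbered by replicate, with filled symbols where title and time field give the same time and open symbols where they conflict. The 3 open KO_night symbols of Adora1, at 44.1, 48.0 and 45.6 CPM, lie beside the 2 filled ones at 48.2 and 44.7 CPM.

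The strand setting of the counts is not given in the sources used here. Protein-coding genes that lie within another were empty in 7.71% of 558 cases where the outer gene, also protein-coding, is on the opposite strand, and in 99.8% of 446 cases where both genes have the same strand. Adora1 shares 2.01 kb at its 3′ end with Mybph, a myosin-binding protein gene on the other strand. Mybph stood at 13.7 to 16.1 CPM in KO_night, against 10.8 to 13.4 CPM in KO_day, 11.5 to 13.7 CPM in WT_night and 11.4 to 15.2 CPM in WT_day. How reads of the shared stretch were assigned was not tested. With the whole count of Mybph subtracted, as a limit and not a correction, Adora1 was at 30.3 to 33.6 CPM in KO_night, against 23.2 to 27.4 CPM in KO_day, 22.7 to 27.4 CPM in WT_night and 24.1 to 27.2 CPM in WT_day. The KO_night libraries were again the 5 highest. For Npsr1 the 2 opposite-strand genes Gm47674 and Gm15600 had counts of 2.57% and 0.900% of its own in KO_night.

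Npsr1 spans 218 kb. After each library's trend over gene length was taken out, its night minus day log2 difference in KO was -0.34 and its KO minus WT log2 difference at night was -0.27, against -0.44 and -0.45 as counted. The 6 thalamus markers, read because that region borders the dissected tissue, summed to 419 to 526 CPM in KO_night, 450 to 574 CPM in KO_day, 473 to 719 CPM in WT_night and 533 to 565 CPM in WT_day. Rora, a gene that other brain regions also express, made up most of this sum. Its mean levels were 330, 384, 452 and 410 CPM in the same order of groups. The other thalamus markers did not follow Rora. Calb2, at 115, 103, 97.5 and 102 CPM, and Prkcd, at 9.64, 6.08, 6.98 and 6.90 CPM, had their highest means in KO_night. So did Gbx2, while Lef1 was highest in KO_day and Tcf7l2 in WT_night. The sum thus mainly follows Rora, and its low values in KO_night are not read as less thalamus. The library with the highest Npsr1 level, WT_night 3 at 13.2 CPM, also had the highest thalamus sum, 719 CPM, and KO_night 3, second lowest in Npsr1 at 7.84 CPM, had the lowest, 419 CPM. Other libraries departed from this order. KO_night 2, lowest in Npsr1 at 7.29 CPM, had a sum of 508 CPM, and KO_day 4 and WT_night 4, at 9.95 and 10.2 CPM of Npsr1, had sums of 450 and 473 CPM. The part of the dissection in the Npsr1 levels was not tested, and in bulk RNA fewer cells of a type and less RNA per cell cannot be told apart.

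The first comparison that the choice of genes did not use is night against day in WT. None of the 9 genes passed edgeR's quasi-likelihood F-test there (adjusted p 0.205 to 0.983). Over all genes tested 61 passed, 0.275%. Galanin alone had an unadjusted p under 0.05, where 15.9% of all genes had one. By DESeq2's Wald test, run without the low-count filter, 0 of the 9 passed, against 387 of 37290 genes, 1.04%. The median log2 difference of the 9 genes was 0.01, against 0.00 over all 22181 genes.

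For Adora1 the WT difference was close to 0, with a log2 difference of -0.0035 and a 95% interval of -0.11 to 0.11. For Npsr1 it was 0.05, with an interval of -0.13 to 0.23.

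Gal (ENSMUSG00000024907, chromosome 19, 3409915 to 3414544, minus strand) was at 9.75, 10.995, 10.3, 10.6 and 11.3 CPM in WT_night 1 to 5, against 12.0, 13.6, 12.3, 11.5 and 11.6 CPM in WT_day 1 to 5. All WT_night libraries lay below all WT_day libraries, which held for 5.32% of all genes in this comparison and for no other gene of the 9. The log2 difference was -0.21 (95% interval -0.37 to -0.05, adjusted p = 0.205), so it did not pass. In KO the galanin libraries overlapped, at 9.64 to 11.6 CPM in KO_night and 9.30 to 12.8 CPM in KO_day.

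Ptgds (ENSMUSG00000015090, chromosome 2, 25466709 to 25470046, minus strand), which encodes the lipocalin-type enzyme that makes prostaglandin D2, had the largest WT difference and the widest spread. It stood at 542, 611, 496, 826 and 674 CPM in WT_night 1 to 5, against 473, 543, 587, 261 and 393 CPM in WT_day 1 to 5. The groups overlapped, and the log2 difference of 0.48 had a 95% interval of -0.14 to 1.096 (adjusted p = 0.440). A difference of more than a doubling would fall within that interval, so a night and day difference of Ptgds was not detectable at this spread, which is 20.5% of the mean in WT_night and 28.6% in WT_day while counting error is 0.670% and 0.742%.

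In KO the Ptgds spread was wider by day, at 511, 402, 283, 445 and 442 CPM in KO_night 1 to 5, against 847, 588, 127, 551 and 340 CPM in KO_day 1 to 5. Both the highest and the lowest Ptgds level of the series were KO_day libraries. Ptgds is made by leptomeningeal cells, choroid plexus and oligodendrocytes. The 7 meningeal and fibroblast markers summed to 44.8 to 72.0 CPM in KO_night, 29.6 to 92.9 CPM in KO_day, 68.3 to 99.7 CPM in WT_night and 44.99 to 61.2 CPM in WT_day, so that this sum was higher in every WT_night library than in any WT_day library. KO_day 3 had the lowest level of both, 127 CPM of Ptgds beside a marker sum of 29.6 CPM. KO_day 1 and WT_night 4 had the 2 highest of both, 847 and 826 CPM of Ptgds beside sums of 92.9 and 99.7 CPM. Of these markers Igf2 was at 0 in every library, and none of the tested ones passed in WT. The part of meningeal tissue in the Ptgds levels was not tested.

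**Figure D3:**
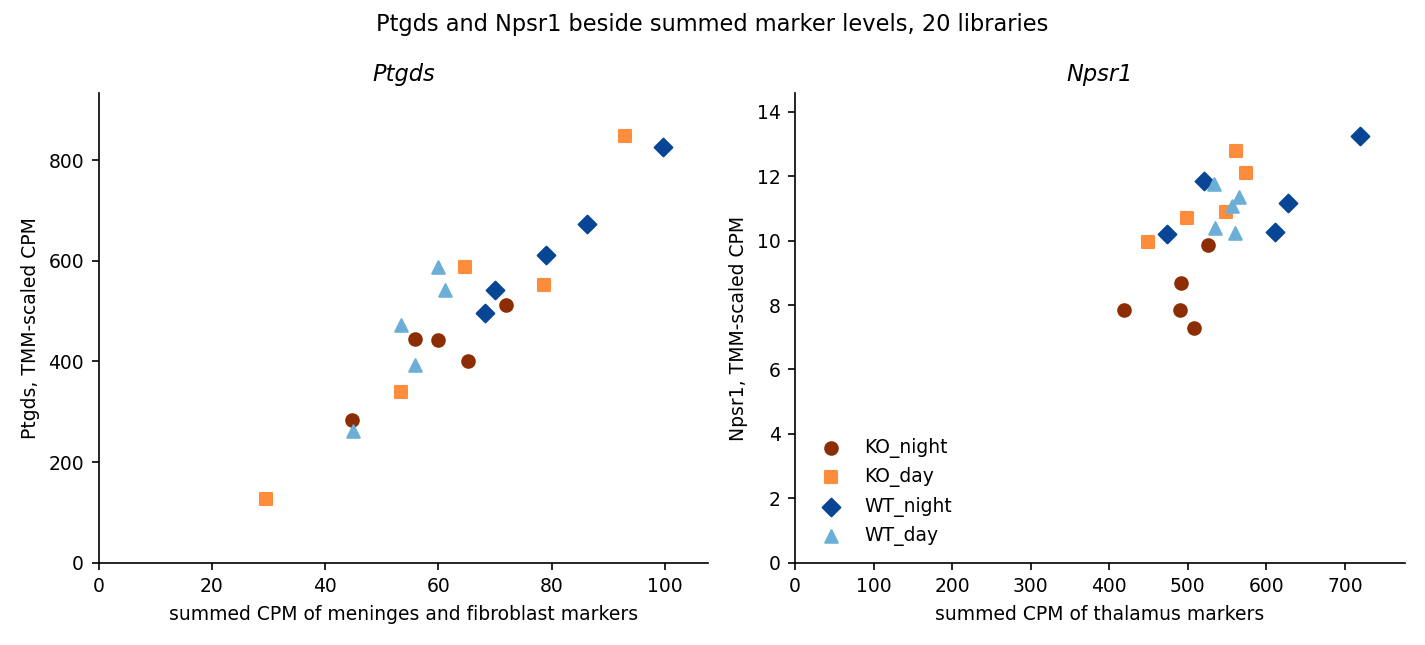
Left, Ptgds against the summed meningeal and fibroblast markers. Right, Npsr1 against the summed thalamus markers, all in TMM-scaled CPM on axes from 0, with 1 point per library coloured by group. KO_day 3 lies lowest in both measures on the left, at 29.6 and 127 CPM, and KO_day 1 and WT_night 4 lie highest, while on the right the KO_night libraries lie at 9.86 CPM of Npsr1 and below, at thalamus sums of 419 to 526 CPM.

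The choroid plexus markers summed to 49.0 to 57.6 CPM in KO_night, 58.9 to 70.0 CPM in KO_day, 64.4 to 74.5 CPM in WT_night and 56.9 to 65.8 CPM in WT_day. Prlr, with means of 28.7, 34.4, 39.2 and 35.2 CPM in the same order of groups, made up the largest part of this sum. The low sums in KO_night are not read as less choroid plexus. The defining choroid gene Ttr reached only 0.221 to 2.14 CPM, and Folr1 0.165 to 0.725 CPM. Oligodendrocyte markers summed to 2148 to 2878 CPM in KO_night, 2132 to 2481 CPM in KO_day, 1989 to 2458 CPM in WT_night and 2143 to 2362 CPM in WT_day, and KO_day 3, lowest in Ptgds, had 2413 CPM of them.

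Neither of the enzymes that remove adenosine passed between night and day in WT. Adk (ENSMUSG00000039197, chromosome 14, 21052574 to 21448569, plus strand), which phosphorylates adenosine to AMP and in the adult brain is found mostly in astrocytes, averaged 92.7 ± 8.65 CPM in WT_night and 100.5 ± 8.05 CPM in WT_day (SD, n = 5 each). Its log2 difference was -0.12 (95% interval -0.25 to 0.02). Adk spans 396 kb, and with the length trend taken out the difference was -0.22 (adjusted p = 0.0801 in edgeR's F-test). Ada (ENSMUSG00000017697, chromosome 2, 163726584 to 163750239, minus strand), which deaminates adenosine to inosine, averaged 1.91 ± 0.136 CPM in WT_night and 1.81 ± 0.465 CPM in WT_day, on 50 to 120 counts per library. At that depth its 95% interval ran from -0.29 to 0.42 on the log2 scale.

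Nt5e, Slc29a1 and Adora2b did not pass in WT either. Nt5e (ENSMUSG00000032420, chromosome 9, 88327197 to 88372092, plus strand), the ectonucleotidase CD73 that makes adenosine from AMP outside cells, averaged 9.26 ± 0.792 CPM in WT_night and 8.66 ± 0.254 CPM in WT_day. Slc29a1 (ENSMUSG00000023942, chromosome 17, 45585200 to 45599606, minus strand), the equilibrative transporter ENT1, averaged 16.5 ± 1.18 CPM in WT_night and 17.1 ± 1.53 CPM in WT_day. Adora2b (ENSMUSG00000018500, chromosome 11, 62248984 to 62266453, plus strand), the low-affinity receptor that couples to stimulatory G proteins, averaged 2.54 ± 0.122 CPM in WT_night and 2.51 ± 0.432 CPM in WT_day (SD, n = 5 each). The 95% intervals of their log2 differences were -0.05 to 0.24, -0.19 to 0.09 and -0.23 to 0.25.

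The second comparison is KO against WT averaged over both times, a contrast that the choice did not use although it draws on the same KO libraries. Again none of the 9 genes passed edgeR's quasi-likelihood F-test (adjusted p 0.0789 to 0.711), against 291 of all genes, 1.31%. DESeq2's Wald test called 1, Npsr1, at an adjusted p of 0.0292, against 1052 of 37290 genes, 2.82%. That share includes low-count genes, which the edgeR share does not. An unadjusted p under 0.05 was found for 5 of the 9 (Adora1, Adk, Nt5e, Slc29a1 and Npsr1), while 19.6% of all genes had one. For Adora1 and Npsr1 the KO libraries and the estimate of spread are those of the comparison that chose them. Nothing is therefore read from this count. The log2 differences ran from -0.24 to 0.11, with 3 genes above 0 and 6 below.

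Npsr1 came nearest to the threshold, at -0.20 ± 0.06 (SE, 95% interval -0.33 to -0.08, adjusted p = 0.0789 in edgeR's F-test). Leaving out WT_night 4 gave an adjusted p of 0.0374 and leaving out KO_night 4 gave 0.0376, while the range over all 20 such fits was 0.0374 to 0.162. Nt5e followed at -0.16 ± 0.05 (adjusted p = 0.0945). Adora1 stood at 0.11 ± 0.04 (adjusted p = 0.111), and passed only in the fit without KO_day 2, at 0.0463, of a range of 0.0463 to 0.204. For these 3 genes the averaged difference joins a night difference with a day difference close to 0, as the values below show.

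Slc29a1 had an averaged log2 difference of 0.11 ± 0.05 (SE) and Adk one of -0.09 ± 0.05 (adjusted p = 0.196 and 0.249 in edgeR's F-test). Adk spans 396 kb, and its averaged log2 difference was 0.02 once the length trend was taken out, so even its direction depends on that step. Slc29a1 shares 2.26 kb with the antisense gene Gm17080, whose count was 30.3% of that of Slc29a1 in KO_night, and with all of it subtracted the log2 difference was 0.10. Ptgds had an averaged difference of -0.24, with a 95% interval of -0.67 to 0.20. Adora2b, Ada and Gal had differences of 0.08, -0.09 and -0.05. Without the library labelled WT_day 3, Npsr1 was at -0.20, Nt5e at -0.15 and Adora1 at 0.11, and none of the 9 genes passed.

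**Figure D4:**
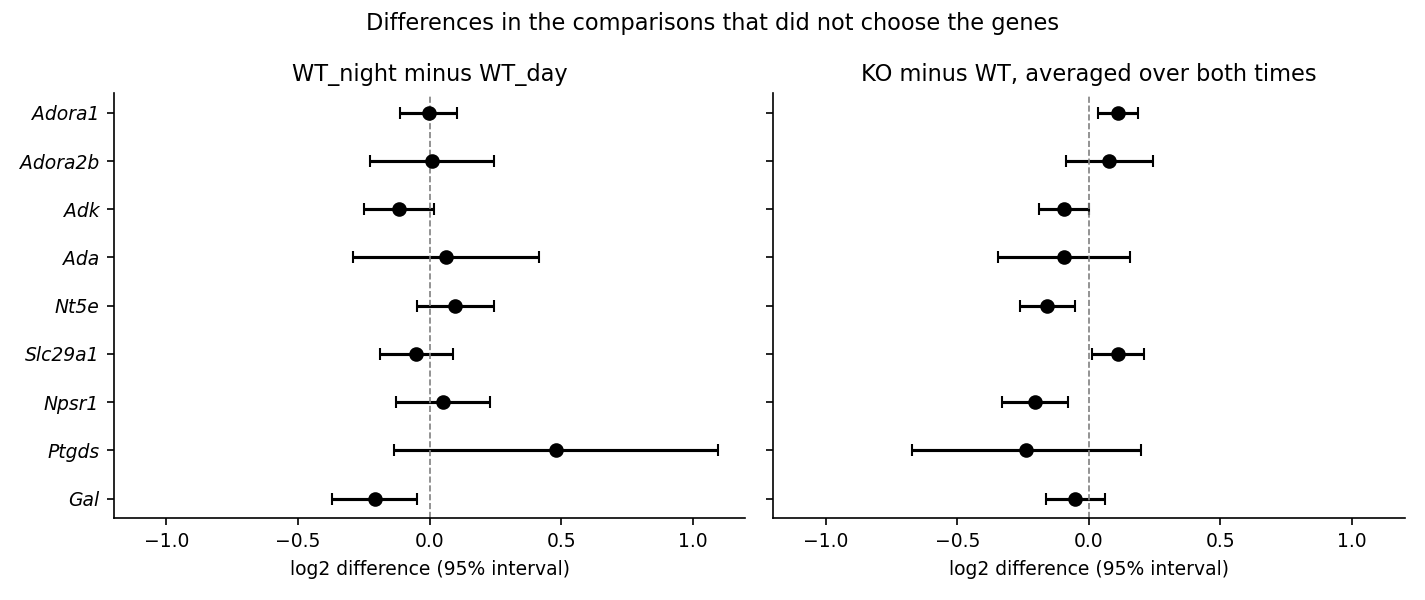
Log2 differences of the 9 genes with 95% intervals (x axes) for WT_night minus WT_day (left) and for KO minus WT averaged over both times (right), from the edgeR fit. No gene passed after adjustment over all genes; the intervals of Ptgds are the widest, -0.14 to 1.096 on the left, and those of Adora1 among the narrowest, -0.11 to 0.11 on the left.

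At each time alone, the KO and WT libraries are described without a test, since the KO libraries are those that chose Adora1 and Npsr1. At night the KO minus WT log2 differences were 0.26 for Adora1, -0.45 for Npsr1, -0.26 for Nt5e, 0.19 for Slc29a1 and -0.60 for Ptgds. By day the same genes stood at -0.04, 0.04, -0.05, 0.03 and 0.12. The 2 time points share no libraries with each other, but the night values share KO_night with the comparison that chose the genes. Groups did not overlap in 3 of the 9 genes at night, against 5.07% of all genes, and in 0 by day, against 2.71%.

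The third gene with separate groups at night was Nt5e, at 7.44, 7.66, 8.36, 8.31 and 6.78 CPM in KO_night 1 to 5, against 10.5, 9.48, 9.08, 8.60 and 8.62 CPM in WT_night 1 to 5. The highest KO_night and the lowest WT_night library were close, at 8.36 and 8.60 CPM, and the KO_day libraries, at 7.70 to 9.04 CPM, and the WT_day libraries, at 8.24 to 8.92 CPM, overlapped. The Nt5e night difference was -0.16 without WT_night 1, 2 and 3.

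The night comparison has a high background, with 2649 of all genes (11.9%) past an adjusted p of 0.05 in edgeR's F-test, while by day 25 genes (0.113%) passed. This count rests on a few libraries. It was 122 without WT_night 3, 286 without WT_night 1, 295 without KO_night 2 and 513 without KO_night 3, against 4253 without KO_night 4 and 4355 without WT_night 4. It was 6 with only libraries whose time labels agree, and 4 with time from the time field. Differences of the 9 genes at night are set in that frame.

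Around the 9 genes, 65 other genes of adenosine handling, the A1 receptor's effectors, neuropeptide S, prostaglandin D2, galanin and other sleep need and sleep length genes were read, of which 59 passed the low-count filter. Night against day called none of them in WT (lowest adjusted p 0.148) and none in KO (lowest adjusted p 0.0513, for the adenylyl cyclase Adcy1). KO against WT averaged over both times called 2 of 59, or 3.39%, both higher in KO, beside 1.31% of all genes. KO against WT at night called 6 of 59, or 10.2%, with 3 higher and 3 lower in KO, beside 11.9% of all genes. By day it called none, and the lowest adjusted p was 0.310.

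Kcnj9 and Bhlhe41 are the 2 genes called in the averaged comparison. Kcnj9 encodes GIRK3, a subunit of the potassium channels that A1 receptors open through G protein beta-gamma subunits. It averaged 46.6 ± 3.57 CPM in KO_night, 41.7 ± 0.971 CPM in KO_day, 39.4 ± 2.25 CPM in WT_night and 39.6 ± 1.17 CPM in WT_day (SD, n = 5 each). It rose in KO by a log2 of 0.16 ± 0.03 (SE, edgeR adjusted p = 0.0293), and the call was lost in 5 of the 20 fits without 1 library (WT_day 2, WT_night 1, WT_night 3, KO_day 4 or KO_night 3; highest adjusted p 0.0652). Bhlhe41 encodes the repressor DEC2, which is known for its effect on sleep length in humans and mice. It averaged 47.9 ± 1.95 CPM in KO_night, 48.8 ± 3.17 CPM in KO_day, 42.0 ± 1.02 CPM in WT_night and 45.4 ± 1.19 CPM in WT_day, and rose in KO by 0.15 ± 0.03 (adjusted p = 0.0241). Its call was lost without WT_day 2 or KO_night 3. With only libraries whose time labels agree neither gene passed, at adjusted p of 0.164 for Kcnj9 and 0.176 for Bhlhe41. Nor did they with time from the time field, at 0.115 and 0.0526, or without WT_night 1, 2 and 3, at 0.283 and 0.148. Over all genes the averaged comparison called 58, 30 and 19 in these settings, against 291 in the main fit. Kcnj9 also lost the call with genotype and time as additive terms, at 0.0538.

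At night 2 of the 11 A1 receptor effectors tested passed, 18.2%, beside 11.9% of all genes. Kcnj9 rose in KO_night against WT_night, by 0.24 ± 0.05 (SE, edgeR adjusted p = 0.0112), while Kcnj3, which encodes GIRK1, fell, by 0.24 ± 0.06 (log2 difference -0.24, adjusted p = 0.0216). Kcnj3 averaged 123 ± 6.57 CPM in KO_night and 145 ± 8.57 CPM in WT_night (SD, n = 5 each). The other 9 effectors tested, inhibitory G protein subunits, adenylyl cyclases and 2 more channel subunits among them, did not pass. Of the nucleoside transporters, Slc29a2 (ENT2) rose, by 0.31 ± 0.09 (adjusted p = 0.0375), and stood at 6.62 ± 0.529 CPM in KO_night and 5.36 ± 0.579 CPM in WT_night.

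Of the other sleep genes, Bhlhe41 rose at night, by 0.19 ± 0.04 (adjusted p = 0.0165 in edgeR's F-test), and the kinase gene Sik3, which sets sleep need in mice, fell, with a log2 difference of -0.23 ± 0.07 (adjusted p = 0.0416). None of the night calls named here held with only libraries whose time labels agree, with time from the time field, or without WT_night 1, 2 and 3. The first setting keeps only KO_night 4 and 5 of KO_night, and the last only WT_night 4 and 5 of WT_night. Over all genes the night calls fell to 6, 4 and 11 in these settings, so the loss is not particular to the genes named. Kcnj3 and Sik3, which fell, and Bhlhe41 and Slc29a2, which rose, also lost the call once the length trend was taken out. Kcnj9 passed in all 20 fits without 1 library, and Slc29a2, Kcnj3, Bhlhe41 and Sik3 in 13 to 18 of them, with WT_night 3 and KO_night 2 among the libraries whose absence ended each of these 4 calls.

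The rest of the adenosine system was present at a wide range of levels. Adora2a, the receptor that marks striatal neurons, averaged 1.54 ± 0.775 CPM in KO_night, 0.811 ± 0.157 CPM in KO_day, 1.11 ± 0.288 CPM in WT_night and 1.28 ± 0.142 CPM in WT_day, and KO_night reached 2.89 CPM in 1 library. The 6 striatum markers summed to 89.7 to 117 CPM in KO_night, 94.5 to 98.0 CPM in KO_day, 94.5 to 101 CPM in WT_night and 91.1 to 98.5 CPM in WT_day. Adora3 is listed at 0 in all libraries, but nearly its whole span lies in Tmigd3 on the same strand. Of the 446 protein-coding genes that lie wholly inside a gene of the same strand, 99.8% have 0 counts in these tables. Adora3 does not lie wholly inside another gene and is not one of the 446. Whether the overlap accounts for its 0 was not tested, so this 0 is not read as a lack of its RNA. None of the 9 genes lies inside another gene of its strand. The gene for the ligand neuropeptide S, Nps, was at 4 to 25 counts per library, and its receptor Npsr1 at 257 to 529. Nps spans 14.2 kb and Npsr1 218 kb, so these counts are not compared as levels.

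Of the ectonucleotidases beside Nt5e, 8 were tested and none passed in any comparison. Enpp2 had 143 CPM and Entpd1 17.7 CPM, not divided by gene length. Of the other adenosine and AMP enzymes 12 were tested and none passed. The cytosolic nucleotidase Nt5c2 had 101 CPM, and the adenosylhomocysteinase-like genes Ahcyl1 and Ahcyl2 had 141 and 177 CPM. These values are not divided by length and are not read as a ranking. Nt5c2 and Ahcyl2 span 132 and 144 kb, while Nt5c, at 16.4 CPM, spans 1.44 kb. In the prostaglandin D2 list, the receptor gene Ptgdr was at 1.03 CPM and the second synthase Hpgds at 8.58 CPM. The galanin receptor gene Galr1 was at 12.6 CPM, and none of the 3 receptor genes passed.

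Levels of different genes are compared only per length. The counts appear to be taken over whole gene spans, so CPM per kb of span was used first. On that scale Ptgds stood far above the others at 149 CPM per kb, followed by Gal at 2.42, Slc29a1 at 1.21, Adora1 at 1.11, Adk at 0.236, Nt5e at 0.189, Adora2b at 0.149, Ada at 0.0762 and Npsr1 at 0.0480 CPM per kb. Ptgds lay at the 99.8th percentile of all tested genes and Npsr1 at the 11.4th. Per kb of annotated exon, Adk came in the third place, at 10.97 CPM per kb, and Npsr1 in the sixth, at 2.65, since both genes consist mostly of introns. On the exon scale the ranges over the 20 libraries overlapped between Gal and Adk (11.8 to 17.3 and 9.55 to 13.1 CPM per kb), between Adora2b and Nt5e, and between Nt5e and Ada, and did not overlap between the other neighbours in the order.

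The genes most like each of the 9 over the 20 libraries were found by Pearson's r of log2 CPM among 13446 other protein-coding genes, as a description. Adora1 was most like Flywch1 (r = 0.935) and Apbb1 (0.919), and Npsr1 most like Angptl1 (0.931) and Cnot4 (0.915). Ptgds followed Slc22a6 (0.976) and Slc13a4 (0.973) more closely than any other of the 9 followed its nearest gene. Slc29a1 was most like Ddx24 (0.911) and Ehd3 (0.901), Adk most like Mrpl1 (0.867) and Mettl25 (0.851), and Gal most like Tesc (0.815) and Map3k19 (0.812). Nt5e was most like ccdc198 (0.813) and Pate2 (0.797), Adora2b most like Borcs7 (0.813) and Met (0.730), and Ada, the gene with the fewest counts, most like Samd11 (0.696) and Kcp (0.649). The libraries share depth, scaling, dissection and group in all of these values.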

How the data were processed

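The authors deposited 1 table of raw counts a library. Per the submitters' processing notes, the tools were HISAT2 and featureCounts and the build mm10. Versions, annotation and strand setting are not given in the sources used here. The file of WT_night 3, deposited by the authors with another separator, was recorded under the unit other and holds the same kind of counts. Symbols, positions and lengths come from GENCODE M21 (GRCm38) for 53706 of 53801 identifiers, promoters from RefSeq. The members and gene lists were chosen with earlier results of these data known.

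Genes were tested with edgeR 4.0.16 in R 4.3.3 (quasi-likelihood F-test, TMM factors 0.945 to 1.08, filterByExpr with a minimum count of 10, 22181 genes, 1 fit of 4 group means, Benjamini-Hochberg adjusted p under 0.05). The common biological coefficient of variation was 0.0918. Levels are CPM of TMM-scaled totals. Intervals cover 95% and come from the fit's SE and t distribution. Tests apply to night against day in WT and to the averaged KO effect; other comparisons of the members have no test. On data simulated for night against day in WT over 22181 genes, 23 of 50 genes changed 1.25-fold and 48 of 50 changed 1.5-fold were recovered. Every simulated gene had the same biological coefficient of variation, 0.09, and only genes with mean counts above 50 were changed. These rates do not apply to genes with a wider spread, such as Ptgds. Libraries of the same replicate number in different groups had correlations of -0.167 to 0.303 (30 pairs, deviations from group means). Pairs of unlike number were not compared, so whether replicate numbers pair libraries is not settled. The main fit has no pairing. No 2 libraries of a group were alike within counting error (chi-square per degree of freedom 5.58 to 53.7 in 40 pairs). Named are the 9 members, the called genes of the pathway lists and up to 4 others per list by level, and the 2 most similar genes per member (mean of at least 1 CPM, log2 CPM with a prior count of 2). A called gene of these lists is not reported here. Adora2a, Adora3, Nps and Adcy1 were named after their values were seen. Alternatives were DESeq2 1.42.0 and its size factors, no filter, leaving out libraries, the time field, a replicate block and removal of the trend with gene length (lowess, span 0.5).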

Additional observations from a re-analysis of the deposited data

Results flagged for a closer look

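Of 36 gene and group combinations tested for a library far from the other 4 of its group, 2 stood out, where chance gives about 1 in 20. Adora1 in WT_night 3 was at 34.3 CPM, below 38.5 CPM in the next library and 40.1 CPM in the highest. Ada in KO_night 5 was at 1.06 CPM, below 1.75 CPM in the next library and 1.96 CPM in the highest, on 35 counts.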

How the results depend on the processing

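In night against day in WT the count of members called was 0 under every alternative run. In KO against WT averaged over both times it was 0, and 1 with DESeq2's Wald test (Npsr1); leaving out 1 library gave 0 to 1. Of 558 member values in these 2 comparisons under an alternative, 531 kept direction and side of the threshold, 4 passed and 23 changed sign, all of the latter at adjusted p of 0.810 or more and log2 sizes up to 0.07. The cause was not tested.

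Sign changes, as log2 differences for night against day in WT, were 0.00081 for Adora1 with DESeq2 size factors, 0.029 without WT_night 1, 2 and 3 and 0.017 with opposite-strand counts subtracted (chosen after seeing the data), -0.025 for Ada without WT_night 1, 2 and 3, -0.0015 for Nt5e with the time field and -0.0073 without WT_night 1, 2 and 3, and -0.038 for Npsr1 with the length trend removed and -0.037 with the replicate block as well. For the averaged effect Adk was 0.0215 with the length trend removed and 0.0221 with the block as well. Npsr1 in night against day in KO was 0.082 with the time field. Without 1 library, night against day in WT ran from -0.031 to 0.038 for Adora1, -0.067 to 0.090 for Adora2b, -0.031 to 0.23 for Ada and -0.0094 to 0.098 for Npsr1.

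With the replicate block 0 members were called in either comparison, and the log2 differences of Adora1 and Npsr1 in night against day in KO were 0.30 and -0.44. At night Slc29a2 and Sik3 lost the call with the block (adjusted p = 0.0506 and 0.0637), and Kcnj9, Kcnj3 and Bhlhe41 did not. Without the low-count filter DESeq2 called 387 (WT night against day), 581 (KO night against day) and 1052 (averaged effect), against 61, 16 and 291 by edgeR with it. Ada and Adora2b, with 35 to 120 counts per library, are limited by counting error.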
